A study of Mus musculus with 8 samples.

Results

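The genes described here are 8 pore subunits of voltage-gated calcium channels (Cacna1a, Cacna1b, Cacna1c, Cacna1d, Cacna1e, Cacna1g, Cacna1h and Cacna1i) and the adaptors Stac and Stac2, 10 of the 55341 gene symbols in each count file. They were chosen by name, with the difference between the groups already known, so their values in that contrast are given as a description without p-values. All 10 were found and all 10 passed the filter on low counts, with 407 to 25845 counts per gene and library. RNA came from nuclei of cortical GABAergic neurons, the inhibitory neurons of the cortex, sorted by a nuclear fluorescent reporter that Cre recombination had switched on. The labels do not name the Cre driver. The PTU group held 4 juvenile mice (mice 9 to 12) made hypothyroid by treating their pregnant mothers with a drug abbreviated PTU in the labels, propylthiouracil, which blocks thyroid hormone synthesis. The PTU+TH group held 4 hypothyroid mice (mice 13 to 16), also labelled PTU and given an intraperitoneal injection of thyroid hormone (TH), with brains taken 24 h later. Ages in days are not given in the sources used here. Every mouse in the comparison was therefore hypothyroid before the injection, and each library came from the cortex of a single mouse. The comparison asks which nuclear transcripts of these neurons differ a day after TH is given.

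Voltage-gated calcium channels open when a neuron depolarises and let calcium in. The large alpha1 subunit, encoded by a Cacna1 gene, forms the pore and sets the channel type, while beta and alpha2delta subunits control its gating and delivery to the membrane. N-type and P/Q-type channels sit at nerve terminals and trigger transmitter release, L-type channels on the cell body and dendrites couple activity to gene transcription, and T-type channels open near the resting potential. STAC proteins bind L-type channels, slow their calcium-dependent inactivation and promote their delivery to the membrane.

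The libraries held 21762810 to 29084071 counts, and levels are given in CPM, the usual scaling of counts to library size, here after TMM (trimmed mean of M values) adjustment. The TH-responsive gene Hr, a corepressor, stood at 1.80 ± 0.53 CPM with PTU alone and 26.6 ± 1.62 CPM with PTU+TH (SD, n = 4 each). The GABAergic markers Gad1 and Gad2 were not called (edgeR adjusted p = 0.669 and 0.802). The GABAergic marker Dlx1, the astrocyte marker Gfap and the microglia marker P2ry12 were listed at 0, so the sums below hold nothing from them. The summed level of 7 excitatory neuron markers was 37.1 to 107 CPM with PTU alone and 45.7 to 120 CPM with PTU+TH, against 2448 to 2883 and 2286 to 2486 CPM for 6 pan-GABAergic markers. Summed astrocyte markers had 125 to 241 and 127 to 366 CPM, oligodendrocyte markers 96.2 to 123 and 94.2 to 193 CPM, and microglia markers 8.88 to 13.4 and 12.9 to 26.8 CPM in the same order of groups. Oligodendrocyte precursor markers had 8.27 to 24.0 and 10.4 to 33.0 CPM, endothelium markers 32.9 to 148 and 33.0 to 107 CPM, and striatal GABAergic markers 179 to 206 and 133 to 196 CPM. Means in the striatal list ran from Ppp1r1b at 0.65 and 0.48 CPM to Foxp1 at 117 and 108 CPM. No marker of these 7 types was called (edgeR adjusted p under 0.05). A log2 fold change above 0 was found for 7 of 7 tested excitatory, 4 of 5 astrocyte, 5 of 6 oligodendrocyte, 3 of 4 precursor, 4 of 4 microglia, 1 of 5 endothelium and 1 of 6 striatal markers, and the part of such cells in the results was not tested. Of 6 PV class markers 1 (Syt2) was called higher and 3 were above 0, and of 5 LAMP5 class markers 1 (Gabrd) was called higher and the other 4 were below 0. Of 5 SST class markers 1 (Calb1) was called lower, as was 1 of 5 VIP class markers (Htr3a), and in both lists all 5 were below 0. In 2 PTU+TH libraries Y-linked genes had no counts. In bulk RNA from sorted nuclei, fewer cells of a type and less RNA per cell cannot be told apart.

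Stac2 was the member with the widest separation between the groups. The gene lies on chromosome 11 (98036623 to 98053462, minus strand, GRCm38), shares no base with another annotated gene and encodes an adaptor of L-type channels. Its level in the PTU libraries was 36.2, 39.7, 43.5 and 43.4 CPM in mice 9, 10, 11 and 12. In the PTU+TH libraries it was 95.8, 107, 90.4 and 95.3 CPM in mice 13, 14, 15 and 16. The lowest PTU+TH library thus had more than the highest PTU library by a wide margin, and the groups did not overlap. The means were 40.7 ± 3.47 and 97.0 ± 6.78 CPM (SD, n = 4 each), a log2 fold change of 1.25 (SE 0.09) for PTU+TH over PTU, or 2.38-fold. With 1 library left out at a time, the log2 fold change of Stac2 lay between 1.21 and 1.29. It was 1.17 when PTU mice 9 and 10, whose Stac2 levels were the lowest, were both left out.

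Its relative Stac, on chromosome 9 (111561437 to 111690348, minus strand), did not share this separation. Stac was at 14.8, 20.4, 33.0 and 23.6 CPM in PTU mice 9 to 12. The PTU+TH libraries of mice 13 to 16 had 25.2, 22.4, 25.3 and 29.3 CPM, all within the range of the PTU libraries. The means were 22.9 ± 7.62 and 25.6 ± 2.84 CPM (SD, n = 4 each), with a log2 fold change of 0.16 (SE 0.20). The value for Stac was 0.0021 without PTU mouse 9 and 0.38 without PTU mouse 11. Per kilobase of merged exons, Stac2 was above Stac in 4 of 4 libraries of each group. Stac3, the adaptor known from skeletal muscle, was at 4.76 ± 1.09 and 5.17 ± 0.63 CPM (SD, n = 4 each), and was not called (edgeR adjusted p = 0.908).

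**Figure D1:**
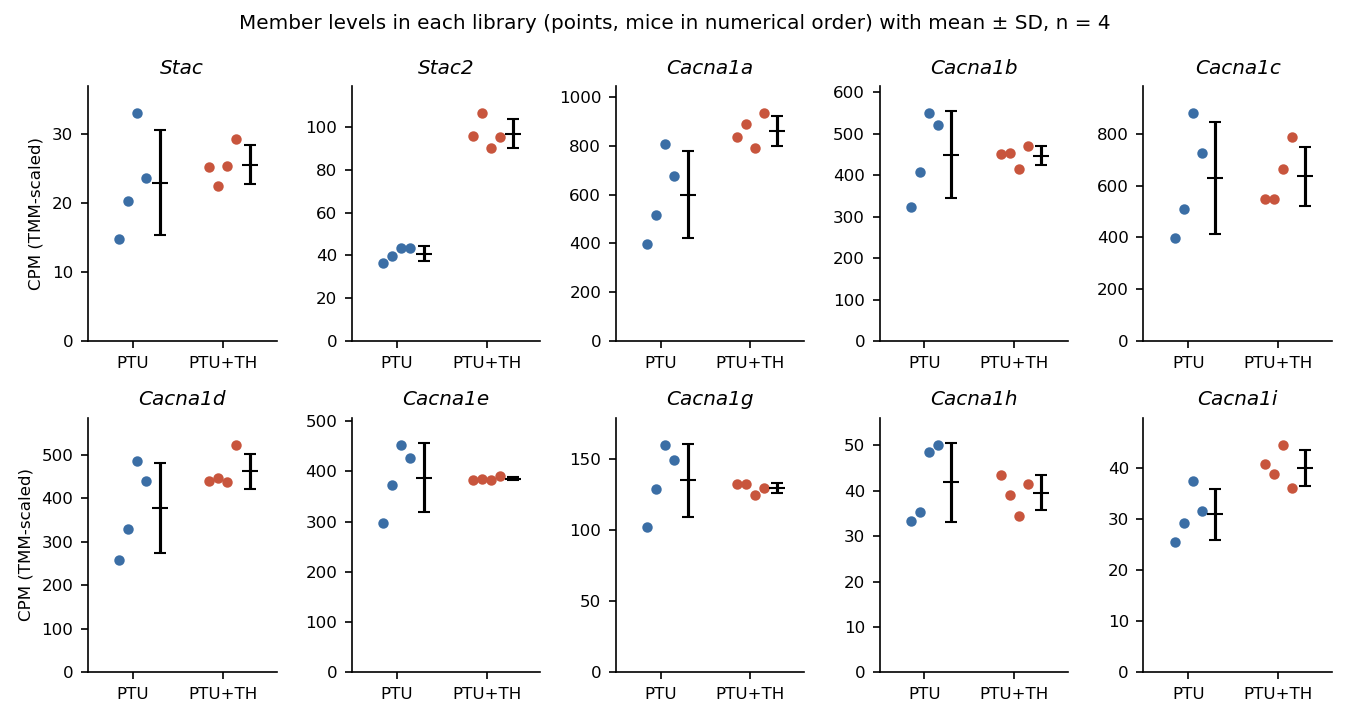
Level of each of the 10 genes in every library, in TMM-scaled CPM on an axis from 0 for each gene; points are mice in numerical order and the bars at the side are mean ± SD (n = 4). Stac2 lies at 36.2 to 43.5 CPM with PTU alone and 90.4 to 107 CPM with PTU+TH, and it alone of the 10 has groups that do not overlap.

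Of the 10 members 1, Stac2, was called at an edgeR adjusted p under 0.05 over all genes, against 2.12% of the 17355 genes tested, and of the 8 pore subunits 0 were called (at the same threshold also 0 with DESeq2 and with limma voom). Groups that do not overlap were found for 1 of the 10, against 8.71% of all genes tested in either direction, 4.68% higher and 4.03% lower. Because the members were picked with this contrast known, these counts are given without a reading. The median log2 fold change was 0.0060 over the pore subunits and -0.0066 over all genes tested.

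P/Q-type channels, whose pore is encoded by Cacna1a (chromosome 8, 84388440 to 84640246, plus strand), drive release at the terminals of fast-spiking interneurons. Cacna1a was at 398, 517, 807 and 676 CPM in PTU mice 9 to 12. In PTU+TH mice 13 to 16 it was at 835, 889, 792 and 933 CPM. A single PTU library, that of mouse 11, reached into the PTU+TH range, and the other 3 lay below it. The means were 599 ± 179 and 862 ± 61.5 CPM (SD, n = 4 each), with a log2 fold change of 0.52 (SE 0.19). The value was 0.38 without PTU mouse 9, 0.70 without PTU mouse 11 and 0.23 with PTU mice 11 and 12 alone in that group.

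N-type and R-type pores are encoded by Cacna1b (chromosome 2, 24603887 to 24763152, minus strand) and Cacna1e (chromosome 1, 154390731 to 154884501, minus strand). Cacna1b had 323, 407, 550 and 521 CPM in PTU mice 9 to 12 and 451, 453, 415 and 470 CPM in PTU+TH mice 13 to 16. Cacna1e had 297, 373, 453 and 426 CPM with PTU alone and 383, 385, 382 and 390 CPM with PTU+TH. For both genes the 4 PTU+TH libraries lay inside the range of the PTU libraries. Their log2 fold changes were -0.0098 (SE 0.16) and -0.0080 (SE 0.13), and both had the other sign under upper quartile scaling and with limma voom. The 4 PTU+TH values of Cacna1e were the closest together of any member, with a coefficient of variation of 0.845% against 17.7% in PTU.

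L-type pores come from Cacna1c (chromosome 6, 118587240 to 119196418, minus strand) and Cacna1d (chromosome 14, 30039939 to 30491455, minus strand), the channels that STAC adaptors bind. Cacna1c was at 397, 510.5, 879 and 725 CPM in PTU mice 9 to 12 and at 547, 549, 665 and 786 CPM in PTU+TH mice 13 to 16. PTU mice 9 and 10 lay below all PTU+TH libraries, mouse 12 within their range and mouse 11 above it. Cacna1c had means of 628 ± 216 and 637 ± 114 CPM (SD, n = 4 each) and a log2 fold change of 0.02 (SE 0.23), which was -0.14 without PTU mouse 9 and 0.23 without PTU mouse 11. Cacna1d was at 257, 330, 485 and 439 CPM with PTU alone and at 440, 446, 438 and 523 CPM with PTU+TH. Mice 9 and 10 of the PTU group lay below all PTU+TH libraries, and mice 11 and 12 within their range. The log2 fold change of Cacna1d was 0.29 (SE 0.18), 0.15 without PTU mouse 9, 0.43 without PTU mouse 11, and 0.0059 with PTU mice 11 and 12 alone in that group. The 2.38-fold separation of the adaptor Stac2 thus stood beside L-type pore genes whose groups overlapped.

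T-type pores, which open at small depolarisations, are encoded by Cacna1g (chromosome 11, 94408391 to 94474198, minus strand), Cacna1h (chromosome 17, 25374285 to 25433783, minus strand) and Cacna1i (chromosome 15, 80287238 to 80398279, plus strand). Cacna1g had 102, 129, 160 and 149 CPM in PTU mice 9 to 12 and 132, 132, 125 and 130 CPM in PTU+TH mice 13 to 16. Cacna1h had 33.4, 35.4, 48.5 and 50.1 CPM with PTU alone and 43.5, 39.1, 34.4 and 41.4 CPM with PTU+TH. In both, the PTU+TH libraries lay inside the PTU range, with log2 fold changes of -0.06 (SE 0.12) and -0.08 (SE 0.14). Cacna1i had 25.5, 29.3, 37.5 and 31.6 CPM with PTU alone and 40.9, 39.0, 44.6 and 36.2 CPM with PTU+TH. PTU mouse 11 exceeded PTU+TH mouse 16, and the other 3 libraries of each group did not overlap. The means of Cacna1i were 31.0 ± 5.004 and 40.1 ± 3.55 CPM (SD, n = 4 each), with a log2 fold change of 0.38 (SE 0.12).

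**Figure D2:**
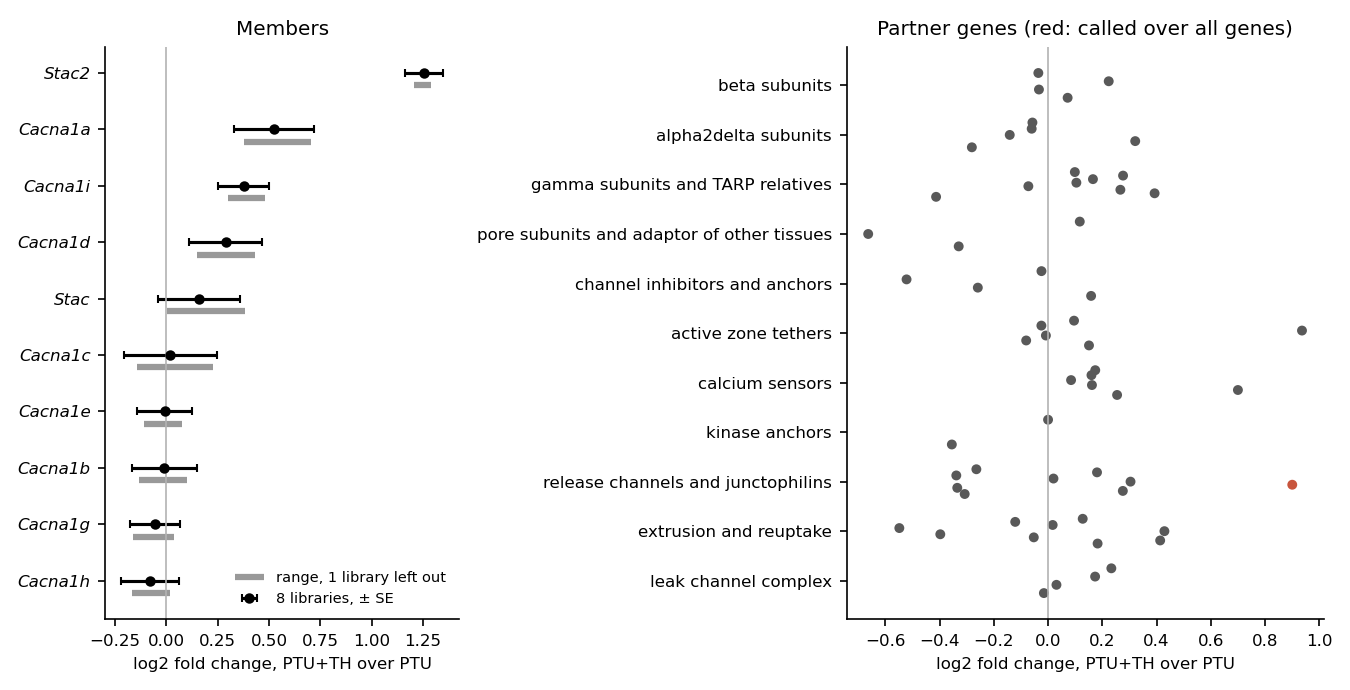
Log2 fold changes of PTU+TH over PTU for the 10 members (left, points with SE; grey bars show the range with 1 library left out) and for 60 partner genes by role (right, 1 point per gene; red marks a gene called over all genes). Stac2 stands at 1.25 and the pore subunits between -0.08 and 0.52; Itpr1, at 0.90, is the called partner gene.

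Promoter windows of 250 bases before to 50 bases after a gene start were taken from RefSeq (GRCm38.p6) for 6 of the 10 members, which had 9 windows. Stac2, Cacna1a, Cacna1g and Cacna1h had none in the table. TH receptors bind DNA at copies of a short half-site, and AGGTCA and its variant GGGTCA were searched on both strands. AGGTCA was in 0 of the 9 windows, against 16.3% of all 32851 windows, and GGGTCA was in 1 of the 9, against 13.7%. A pair of AGGTCA copies on the same strand with 4 bases between them was in 0 of the 9, and in 0.0152% of all windows. The window with the match, that of the T-type gene Cacna1i (chr15:80286988-80287287, plus strand), is shown with the match in capitals, which begins 170 bases before the gene start. The window of the adaptor gene Stac (chr9:111690299-111690598, minus strand) is shown beside it as a window with no match. Both read 5′ to 3′ on the strand of the gene. These are letters in a window and not measured binding sites.
Cacna1i: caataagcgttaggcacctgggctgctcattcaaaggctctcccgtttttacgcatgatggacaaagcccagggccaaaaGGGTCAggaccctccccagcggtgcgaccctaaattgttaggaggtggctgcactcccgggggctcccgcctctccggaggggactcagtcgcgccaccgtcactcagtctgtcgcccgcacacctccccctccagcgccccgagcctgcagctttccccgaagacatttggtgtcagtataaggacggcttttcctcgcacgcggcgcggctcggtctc
Stac: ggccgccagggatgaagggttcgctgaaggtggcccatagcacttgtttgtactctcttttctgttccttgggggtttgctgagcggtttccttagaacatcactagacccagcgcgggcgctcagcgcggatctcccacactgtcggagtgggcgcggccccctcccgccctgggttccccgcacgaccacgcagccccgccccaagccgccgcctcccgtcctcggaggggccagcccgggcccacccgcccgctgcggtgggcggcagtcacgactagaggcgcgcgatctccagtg

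The PTU libraries differed among themselves in the same order for nearly every member. In 10 of 10 members mouse 9 was lowest and mouse 10 next, and in 9 of 10 mouse 11 was highest, the exception being Cacna1h with mouse 12. Among all genes tested, 19.9% had mouse 9 below mouse 10 and both below mice 11 and 12, and among the 2605 tested genes with a body over 100 kb this was 56.8%. The highest PTU library exceeded the lowest by 2.23-fold for Stac, 2.22-fold for Cacna1c, 2.03-fold for Cacna1a and 1.20-fold for Stac2. In 10 of 10 members the spread of log2 CPM was larger in PTU than in PTU+TH, against 62.2% of all genes tested and 69.7% of genes with a body over 100 kb. The median spread over the members was an SD of 0.33 in PTU and 0.11 in PTU+TH on the log2 scale, and over all genes tested 0.24 and 0.19.

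The share of a library's counts that fell in genes with a body over 100 kb followed these levels in the PTU group. It was 37.4%, 40.5%, 48.9% and 46.6% in PTU mice 9 to 12, the order of 9 of 10 members, and 42.3%, 42.5%, 45.5% and 48.5% in PTU+TH mice 13 to 16, the order of 1 of 10 members, Cacna1c. Stac2 was highest in mouse 14 and lowest in mouse 15, which was not the order of the share. The group means of the share, 43.3% ± 5.30 and 44.7% ± 2.92 (SD, n = 4 each), did not differ beyond this spread (exact permutation test, two-sided, p = 0.629, smallest possible 0.0286). The bodies of 7 pore genes and Stac are 65.8 to 609 kb long, and those of Cacna1h and Stac2 59.5 and 16.8 kb. With this share as a covariate, an alternative chosen after the data were seen, the log2 fold change of Stac2 was 1.24 (SE 0.08) and that of Cacna1a 0.49 (SE 0.09), and both were called, so that 2 of the 10 members were called, against 5.58% of all genes tested in that fit. In that fit Cacna1d had 0.24 (SE 0.07) and Cacna1i 0.35 (SE 0.10), and neither was called. What causes the spread within the PTU group was not tested.

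**Figure D3:**
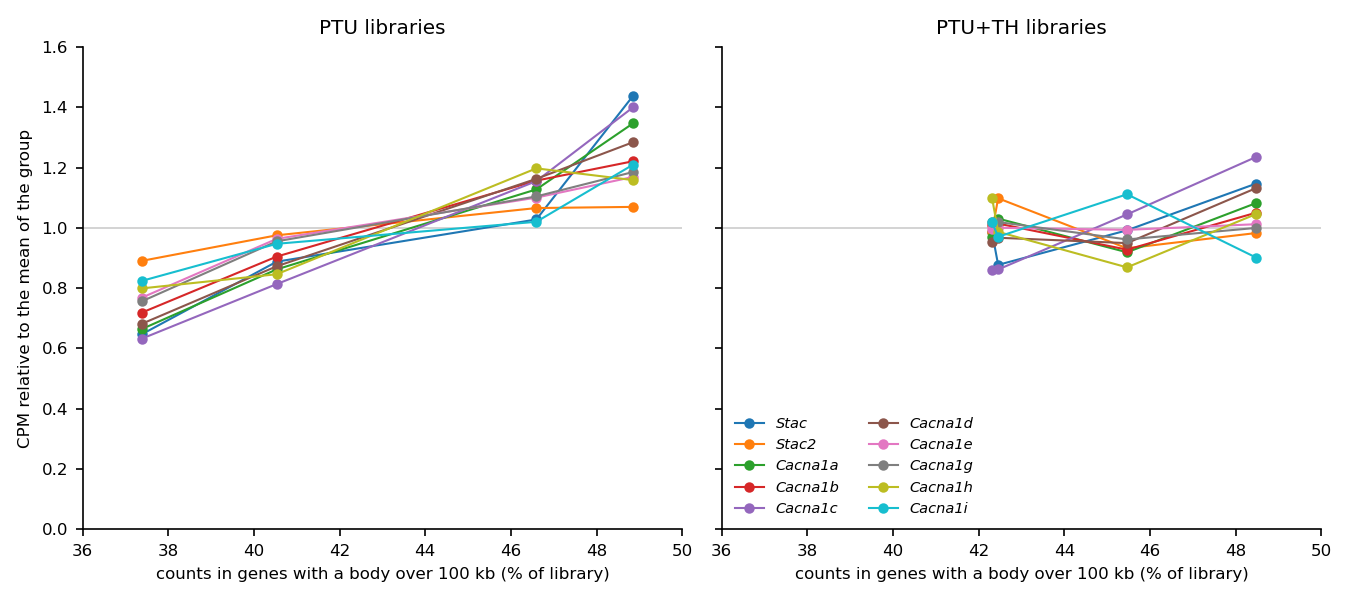
Level of each member relative to its group mean (vertical axis) against the percent of the library's counts in genes with a body over 100 kb (horizontal axis), for the 4 PTU libraries (left) and the 4 PTU+TH libraries (right). In PTU, all members are lowest in the library at 37.4% and next lowest in the one at 40.5%; Stac2 spans the narrowest range, 1.20-fold. In PTU+TH, the library with the lowest share, 42.3%, is the lowest for 1 of 10 members.

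Levels between genes were compared in CPM per kilobase of merged exons, and on this scale the P/Q-type pore gene was the highest of the members in both groups. Cacna1a led with 52.5 ± 15.7 in PTU and 75.5 ± 5.39 in PTU+TH, followed by Cacna1b with 45.3 ± 10.5 and 45.0 ± 2.33 (SD, n = 4 each). Cacna1d (29.9 ± 8.20 and 36.6 ± 3.23) and Cacna1c (29.6 ± 10.2 and 30.04 ± 5.39) came next, and Cacna1d was above Cacna1c in 7 of 8 libraries. Stac2 had 13.0 ± 1.11 in PTU and 30.9 ± 2.16 in PTU+TH, so that its place by mean went from 7 of 10 in PTU to 4 of 10 in PTU+TH. Stac2 was above Cacna1e in 0 of 4 PTU and 4 of 4 PTU+TH libraries, above Cacna1g in 1 of 4 and 4 of 4, and above Cacna1c in 0 of 4 and 2 of 4. Cacna1e and Cacna1g lay at 15.4 ± 2.71 and 13.3 ± 2.51 in PTU, Stac at 8.68 ± 2.88, Cacna1h at 4.29 ± 0.89 and Cacna1i at 3.14 ± 0.51 (SD, n = 4 each). Among the other members, ordered by their mean over all 8 libraries, each gene was above the next in 8 of 8 libraries for Cacna1a over Cacna1b, Cacna1b over Cacna1d, Cacna1e over Cacna1g, Cacna1g over Stac and Stac over Cacna1h. For Cacna1h over Cacna1i it was 7 of 8. The treatment of introns in the counting is not stated. Of 1265 protein-coding genes lying inside another gene 100% were at 0, against 14.5% of other protein-coding genes, so whole gene bodies may have been counted. The order by merged exons is therefore uncertain, and the order by gene body differs from it. Per kilobase of the whole gene body, the highest means in PTU were those of Cacna1b (2.83 ± 0.66), Stac2 (2.42 ± 0.21) and Cacna1a (2.38 ± 0.71), and in PTU+TH those of Stac2 (5.76 ± 0.40), Cacna1a (3.42 ± 0.24) and Cacna1b (2.81 ± 0.15; SD, n = 4 each). On this scale Stac2 was above Cacna1b in 1 of 4 PTU and 4 of 4 PTU+TH libraries. Stac was the lowest in both groups (0.178 ± 0.059 and 0.198 ± 0.022; SD, n = 4 each).

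As a share of the summed pore subunit level of its own library, Cacna1a was separated between the groups. Per kilobase of exons it made up 25.9% to 28.5% in the 4 PTU libraries and 32.6% to 35.2% in the 4 PTU+TH libraries. Cacna1d made up 15.2% to 15.8% and 16.0% to 17.0%. Cacna1b went the other way, with 22.3% to 24.2% in PTU and 19.4% to 21.0% in PTU+TH, as did Cacna1g with 6.35% to 7.49% and 5.25% to 6.05%. These 4 genes had groups that did not overlap per kilobase of exons, per kilobase of gene body and without a length correction. No such count over all genes was made for shares, so this one is given without a reading. In CPM 0 of the 8 pore subunits had groups without overlap, and Cacna1b and Cacna1g had log2 fold changes of -0.0098 and -0.06. Cacna1c (13.9% to 16.7% and 11.7% to 15.2%), Cacna1h and Cacna1i overlapped on all 3 scales, and Cacna1e on 2 of 3. Shares of a library add up to the whole, so a higher share of Cacna1a lowers the sum of the others, not each one. These shares come from the contrast with which the members were chosen.

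**Figure D4:**
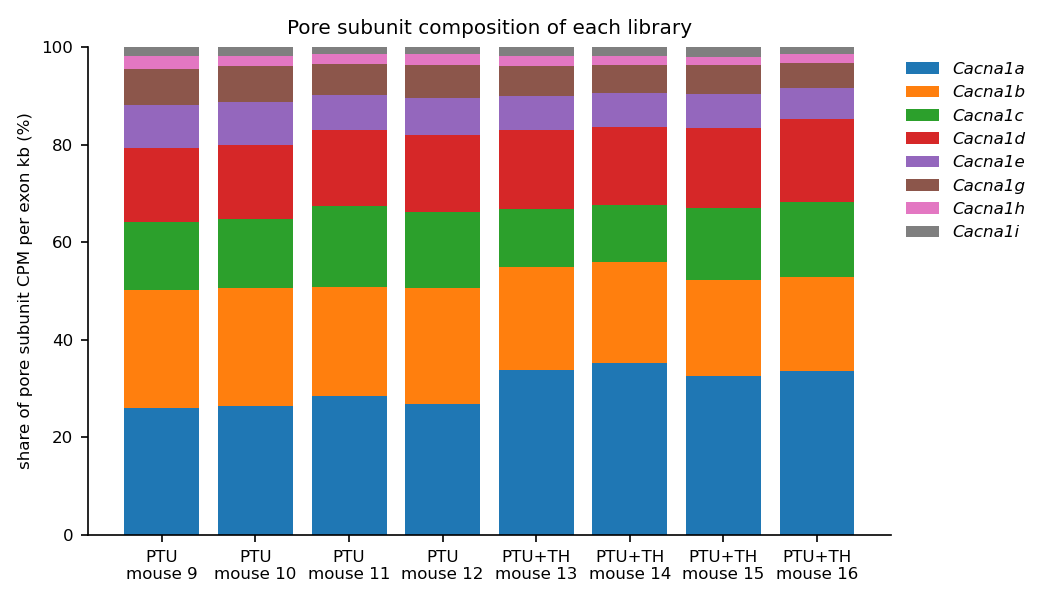
Share of each of the 8 pore subunits in the summed pore subunit CPM per kilobase of merged exons, with 1 bar for each library and a linear axis from 0 to 100%. Cacna1a takes 25.9% to 28.5% in the PTU libraries and 32.6% to 35.2% in the PTU+TH libraries.

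Partner genes of the channels were taken by role, and 60 of 65 listed could be tested. Of these, 1 was called higher and 0 lower over all genes, against 1.49% and 0.634% of all genes tested. At an unadjusted p under 0.05 there were 6 higher and 5 lower, against 6.59% and 6.17% of all genes tested. With DESeq2 2 were called higher and 1 lower, against 2.73% and 1.75%. Groups that do not overlap were found for 6 genes higher with TH (Cacnb3, Cabp1, Itpr1, Atp2b1, Atp2b2 and Atp2a2) and 3 lower (Rrad, Ryr1 and Jph4), against 4.68% and 4.03% of all genes tested. The called gene was Itpr1 (chromosome 6, 108213096 to 108551109), the inositol trisphosphate receptor that releases calcium from the endoplasmic reticulum. It had 147, 170, 193 and 188 CPM in PTU mice 9 to 12 and 321, 327, 297 and 356 CPM in PTU+TH mice 13 to 16, so that the groups did not overlap. The mean of Itpr1 rose from 174 ± 20.8 to 325 ± 24.0 CPM (SD, 4 libraries per group), with a log2 fold change of 0.90 (SE 0.11) and an edgeR adjusted p of 0.000916. Itpr1 was called under all 19 alternatives, with adjusted p-values up to 0.0274.

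The subunits that assemble with the pore showed no called gene. Of 4 beta subunits 0 were called, with Cacnb3 at a log2 fold change of 0.22 (edgeR adjusted p = 0.247) and Cacnb4 at -0.04 (0.976). Cacnb3 had 88.2 to 94.5 CPM with PTU alone and 98.7 to 118 CPM with PTU+TH, and its groups did not overlap. Of 5 alpha2delta and related genes 0 were called, from Cacna2d2 at 0.32 (edgeR adjusted p = 0.513) to Cacna2d1 at -0.28 (0.305). Cacna2d1 and Cacna2d2 encode the subunits that gabapentinoid drugs bind. Of 8 gamma subunits and their relatives, which serve mainly AMPA receptors in brain, 0 were called, from Cacng2 at 0.39 (edgeR adjusted p = 0.302) to Cacng1 at -0.41 (0.738). The retinal and muscle pore genes Cacna1f and Cacna1s were at 3.66 ± 0.84 and 1.10 ± 0.64 CPM with PTU alone and 2.92 ± 0.71 and 0.69 ± 0.16 CPM with PTU+TH (SD, n = 4 each), and neither was called (edgeR adjusted p = 0.677 and 0.615).

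Regulators and anchors of the channels likewise had 0 called genes in each list. Among 4 tested channel inhibitors and anchors, the small GTPase gene Rrad had a log2 fold change of -0.52 (edgeR adjusted p = 0.513) and its relative Gem 0.16 (0.924). Among 6 active zone genes the values ran from Rimbp3 at 0.94 (edgeR adjusted p = 0.649), with 2 to 32 counts per library, to Rims2 at -0.08 (0.921). Among the calcium sensors Cabp4 was at 0.70 (edgeR adjusted p = 0.509), and 50.7% of its body is free of other genes. The kinase anchors Akap5 and Akap7 were at -0.35 and -3.7e-05 (edgeR adjusted p = 0.509 and 1.000). The leak channel gene Nalcn was at -0.02 and its partner Fam155a at 0.23 (edgeR adjusted p = 0.985 and 0.846).

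Other genes of calcium release and removal surrounded Itpr1 without being called. Beside it, 8 tested release channels and junctophilins ran from Itpr2 at a log2 fold change of 0.30 (edgeR adjusted p = 0.787) to Jph1 at -0.34 (0.513), a gene with 4.69% of its body free of other genes. The ryanodine receptor Ryr1 had 17.0 to 21.3 CPM with PTU alone and 14.0 to 16.7 CPM with PTU+TH, without overlap of the groups (log2 fold change -0.31, edgeR adjusted p = 0.282). Of 9 tested extrusion and reuptake genes 0 were called, from Atp2a2, the calcium pump of the endoplasmic reticulum, at 0.43 (edgeR adjusted p = 0.142) to Atp2a3 at -0.55 (0.754). Atp2a2 had 163 to 247 CPM with PTU alone and 256 to 278 CPM with PTU+TH, without overlap. Atp2a2 was called without PTU mouse 9, and also with the share of counts in long genes as a covariate.

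The genes whose pattern over the 8 libraries was most like that of Stac2 were Arhgef37, Gls2, Frmpd1, Foxred2 and Adgra3. Likeness was the Pearson correlation of log2 CPM with Stac2 among the 15230 tested genes whose mean reached 1 CPM, as a description. It was 0.997, 0.993, 0.993, 0.992 and 0.987 in that order, and 82 genes exceeded 0.95. All points share the same 8 libraries in 2 groups, and the gap between the groups enters each value. With the group means removed the correlation was 0.903 for Arhgef37, 0.685 for Gls2, 0.737 for Frmpd1, 0.608 for Foxred2 and 0.325 for Adgra3. Arhgef37 went from 10.0 ± 1.03 CPM in PTU to 32.2 ± 1.27 CPM with PTU+TH and Adgra3 from 20.2 ± 1.01 to 47.0 ± 3.08 CPM (SD, n = 4 each). Foxred2 had the smallest log2 fold change of the 5, 0.53, with 59.2 ± 1.83 and 85.4 ± 2.10 CPM (SD, n = 4 each).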

How the data were processed

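Nuclear RNA of 8 sorted samples was measured, 4 per group, with groups taken from the sample titles. What the authors deposited are whole-number read counts, 1 value for each gene symbol, without normalization. Bowtie2 2.5.3 and the builds mm10 and GRCm38 are named per the submitters' processing notes; the counting program, the use of strand and the treatment of introns are not given in the sources used here. All 55341 symbols match GENCODE M21, which gave positions and lengths. Of 1265 protein-coding genes lying inside another gene 100% were at 0 in every library, so a 0 for such a gene is not read as absence, and overlapping genes are uncertain. The bodies of the 10 members were 96.2% to 100% free of other genes.

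The test was that of edgeR 4.0.16, run under R 4.3.3 (filterByExpr, TMM, robust quasi-likelihood test, two-sided, Benjamini-Hochberg over 17355 genes), and calls used a threshold of 0.05 on the adjusted p. The SE is the absolute log2 fold change divided by the square root of the F statistic. Alternatives were RLE, upper quartile and total scaling, other filters, DESeq2 1.42.0, limma voom (limma 3.58.1), a fit that was not robust, each library left out, the 6 libraries with Y-linked counts, and 2 alternatives chosen after seeing the data. The fit was tested on simulated data. Pairs of libraries in a group differed by a chi-square of 8.38 to 72.6 per degree of freedom, so none was a copy. The members and lists were chosen with earlier results of these data known. The text names, in each partner list, every called gene and the largest and smallest log2 fold change among the rest, and the 5 genes most like Stac2. Beyond this rule, partner genes whose groups do not overlap, those called under an alternative, and Cacna1f were named after their values were seen. The values of 1 partner gene are not reported here.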

Additional observations from a re-analysis of the deposited data

Results flagged for a closer look

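A library standing apart from the rest of its group was looked for among 22 sets of 4 values, those of the 10 members and Itpr1 in both groups. Chance flags about 5% of such sets, or 1.1 here, and 1 was found. It was PTU+TH mouse 16 for Cacna1d, with 523 CPM where the other 3 had 438 to 446 CPM, a gap of 0.903 of the range of the 4. That library also held the highest share of counts in long genes of its group, 48.5%; the part of this share in the value was not tested.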

How the results depend on the processing

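Stac2 was called under all 19 alternatives, with a log2 fold change of 1.17 to 1.31. All 190 values of the members under alternatives lay within 1 SD between libraries of the reported value. This limit is wide, because leaving out 1 or 2 of 4 libraries can hardly move a group mean that far. It is therefore no measure of stability, and Cacna1a went from 0.52 to 0.23 within it. The pore subunits Cacna1b, Cacna1c, Cacna1e, Cacna1g and Cacna1h, 5 of 8, changed sign under at least 1 alternative, and Stac had -0.14 with PTU mice 11 and 12 alone in its group. The count of called members was 1, and 2 with the share of counts in long genes as a covariate. Over all genes, 368 calls became 748 with DESeq2, 58 in the 6 libraries with Y-linked counts, 969 with the covariate and 1029 with PTU mice 11 and 12 alone in that group, and between 182 (without PTU+TH mouse 15) and 499 (without PTU mouse 9) with 1 library left out. The count also fell by over 1.5 times without PTU mouse 12 (233) and PTU+TH mice 13 (238), 14 (227) and 16 (209). The count of called partner genes, 1, became 2 with library totals only (Atp2b2 and Itpr1), 3 with DESeq2 (Atp2b2, Itpr1 and Jph4), 6 with the covariate (Atp2a2, Atp2b2, Cacng2, Itpr1, Jph4 and Ryr3) and 4 with PTU mice 11 and 12 alone (Atp2a2, Cacna2d3, Itpr1 and Ryr3), and ranged from 1 to 3 with 1 library left out, 3 being without PTU mouse 9 (Atp2a2, Itpr1 and Ryr3). Fewer libraries enter the fits that leave some out; what moved the rest was not looked into, and the cause was not tested. No paired analysis was possible because no mouse number occurs in both groups. Other scalings shifted the all-gene median log2 fold change by no more than -0.021.

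The 21 uncalled partner genes that were run under the alternatives changed sign in 25 of 397 values. Akap7 was at 0.014 with upper quartile scaling, 0.0023 without a filter, 0.0038 with a mean of at least 1 CPM, 0.0019 with limma voom and 0.014 with PTU mice 11 and 12 alone. With those mice alone Atp2a3 was at 0.12 and Fam155a at -0.22. In the 6 libraries with Y-linked counts Fam155a was at -0.064, Gem at -0.27 and Stac3 at -0.0022. With 1 library left out, the ranges were -0.044 to 0.046 for Akap7, -0.78 to 0.25 for Atp2a3, -0.16 to 0.13 for Cacnb4, -0.29 to 0.30 for Gem, -0.096 to 0.053 for Nalcn and -0.19 to 0.033 for Rims2. Every member had at least 407 counts in each library.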
